A study of Mus musculus with 4 samples.

Results

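The oligos described here are 336 designed DNA probes in which 4 neighbouring varied bases are all purines (A or G), so that the opposite strand reads 4 pyrimidines in a row (C or T). They were found from the probe names: 21 libraries of the array vary 4 bases through all their combinations on a fixed sequence, and the 16 combinations made only of A and G were kept in each. They are 336 of 6126 probe names in all and 336 of 5376 names in the 21 libraries. The rule that picked them reads names and no measured value, though earlier results of these data were known. The 336 names hold 336 distinct sequences, of which 32 also appear under a second name, since the varied bases of one library can run into the fixed bases of another. Thus 16 tracts, from TTTT to CCCC, were each read in 21 surroundings.

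The series measured antibody binding to such probes on 4 arrays. A mouse antibody against cyclobutane pyrimidine dimers (CPD) was used at a dilution of 1 in 400 on a UV-irradiated array and on a non-irradiated array, and a mouse antibody against 6-4 photoproducts (6-4PP) at 1 in 80 on a UV-irradiated array and on a non-irradiated array. There was 1 array per antibody and condition, so no value below has a test between arrays, and the error given is the SD over the 10 replicate spots of a probe name on an array or the range over libraries. The arrays were assigned by the condition field of the labels, which the titles of the 6-4PP arrays contradict for both. For the UV dose and the making of the double strand, the labels refer to a manuscript not used here.

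UV light joins neighbouring pyrimidines on the same DNA strand. In a CPD the pair is linked by a 4-membered ring, and TT steps are known as the most productive sites. In a 6-4PP the pair is linked by a single bond between the rings, and TC steps are known as favoured sites. Both block polymerases and are removed by nucleotide excision repair. Purine runs form no such pair, so in these probes the sites inside the varied bases lie on the strand opposite to the listed one.

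The probes that carry the results are shown on the listed strand, 5′ to 3′, with the 4 varied bases in capitals. The first group holds the homopolymer and alternating endings of MITF_sebox_59, the library whose TTTT minus CCCC difference was the median one on the CPD UV array. On the opposite strand AAAA reads TTTT, ending GGGG reads CCCC, ending GAGA reads TCTC and ending AGAG reads CTCT.
MITF_sebox_59_AAAA: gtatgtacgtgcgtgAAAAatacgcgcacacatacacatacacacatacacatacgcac
MITF_sebox_59_GGGG: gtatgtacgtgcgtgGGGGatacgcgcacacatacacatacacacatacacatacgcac
MITF_sebox_59_GAGA: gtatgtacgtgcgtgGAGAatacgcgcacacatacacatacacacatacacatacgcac
MITF_sebox_59_AGAG: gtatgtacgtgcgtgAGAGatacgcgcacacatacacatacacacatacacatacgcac

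The next probes had the highest and the lowest CPD signal after UV among the 336. Both homopolymers are the extremes, with TTTT opposite AAAA and CCCC opposite GGGG.
TBP_59_AAAA: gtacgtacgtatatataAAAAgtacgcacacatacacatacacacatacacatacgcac
MITF_sebox_60_GGGG: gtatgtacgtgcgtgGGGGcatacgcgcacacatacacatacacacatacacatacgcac

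The last pair carries one tract, CCCT opposite AGGG, and lay at the top and at the bottom of the 6-4PP signal after UV. The probes differ in the bases on either side of the tract.
MITF_ebox_59_AGGG: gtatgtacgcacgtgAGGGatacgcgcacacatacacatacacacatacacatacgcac
MITF_Ex_ebox_59_AGGG: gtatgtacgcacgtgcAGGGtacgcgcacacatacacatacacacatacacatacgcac

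Flanks are written below as the opposite strand reads them, in lower case around the tract: the first of this pair is tCCCTc and the second aCCCTg. The 21 libraries fall into 8 flank pairs, and flanking pyrimidines lengthen the pyrimidine run to 4 bases in 4 libraries, 5 bases in 13 and 6 bases in 4. The libraries are named for 3 proteins that bind DNA (MITF, TBP and p53), and probes are 59 bases long in 8 libraries and 60 in 13. In the MITF and TBP probes shown above, the fixed bases outside the run alternate between purine and pyrimidine. The fixed sequence is the same for every ending of a library but differs between libraries, so tracts were compared within a library.

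Fluorescence intensity per name was the median of its unflagged spots. Of the 3360 member spots on each array, the 6-4PP antibody had 22 flagged with UV and 73 without, and the CPD antibody 0 with either, and every member kept at least 7 spots. With the anti-CPD antibody the median SD over the spots of a member was 0.66 log2 units with UV and 0.21 without. With the anti-6-4PP antibody it was 0.29 with UV and 0.15 without. The spread between members after UV was 0.64 log2 units (SD) for CPD and 0.56 for 6-4PP, so a single member was read more firmly with the 6-4PP antibody, and the CPD statements below rest on the 21 libraries rather than on single probes. On the 6-4PP UV array 62 spots of 18 members reached the scanner limit of 65535, and the medians of 6 members lay there and are lower bounds. The 32 members whose sequence has a second name differed from it after UV by a median of 0.20 log2 units for CPD and 0.06 for 6-4PP, and by at most 1.11 and 0.25. The DNA amount per spot was not corrected for, since that channel held 1 at every spot.

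All 336 probes were brighter on the UV array with both antibodies. With the anti-CPD antibody the members ranged from 1362 to 13279.5 on the UV array (median 4694), against 25.5 to 37 on the non-UV array (median 29), and the difference had a median of 7.30 log2 units, or 157-fold. With the anti-6-4PP antibody they ranged from 7796.5 to 65535 on the UV array (median 18669), against 33.5 to 73 on the non-UV array (median 54.5), a median difference of 8.47 log2 units, or 354-fold. The arrays did not overlap for either antibody. Over all names of the 21 libraries the lowest UV value was 898 and the highest non-UV value 328 with the anti-CPD antibody, and 2635 and 427 with the anti-6-4PP antibody. Of those names 100% were 2-fold or more above their own non-UV value with either antibody, so the count says nothing particular to the purine endings. The median difference over the other 5040 endings was 7.08 log2 units with the anti-CPD antibody and 8.14 with the anti-6-4PP antibody.

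The anti-CPD signal after UV followed the number of T in the opposite-strand tract. Set against its library's mean over the 16 tracts, TTTT stood 0.92 log2 units above (range 0.44 to 1.20 over the 21 libraries), was above the mean in 21 of 21 libraries and was the highest tract in 15. CCCC stood at -0.90 (-1.79 to -0.40), was below the mean in 21 of 21 libraries and was among the lowest 4 in each of them. In intensity TTTT had a lowest, median and highest library of 5031.5, 7674 and 13279.5, and CCCC had 1362, 2251 and 4159.5. No library's CCCC probe reached the lowest TTTT probe.

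Within a library, TTTT exceeded CCCC by a median of 1.79 log2 units on the CPD UV array, 3.47-fold, with MITF_Ex_ebox_60 lowest at 1.01 and p53_E60 highest at 2.49. The difference was positive in 21 of 21 libraries and larger than the combined spot SD in 20. All 10 spots of TTTT lay above those of CCCC in 18 libraries, or in 21 with the authors' spatially adjusted intensity. Of all pairs of names within a library, 14.2% had spots that did not overlap on that array, counted in either direction. No such share is given for the adjusted intensity. On the CPD non-UV array the same difference had a median of 0.15 log2 units, with TTTT higher in 18 libraries and its spots wholly above in 0. There 3.38% of all pairs were apart in either direction. The direction of the tract difference was thus the same on the non-irradiated array, at a smaller size that exceeded the combined spot SD in 3 libraries.

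Between the homopolymers the tracts lay in steps. By number of T, the median intensity over members was 2251 with 0 T, 3638 with 1, 4604 with 2, 6540 with 3 and 7674 with 4. The mean over tracts rose at each added T in 18 of 21 libraries, by medians of 0.53, 0.42, 0.51 and 0.44 log2 units. The 4 tracts with 1 C among 3 T took places 2 to 5, with CTTT at 0.59, TTTC at 0.54, TTCT at 0.47 and TCTT at 0.43 log2 units against the library mean. TTTC was above the mean in 21 of 21 libraries, and each of the other 3 in 20.

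Pooled over libraries, tracts of 2 T and 2 C lay near the mean on the CPD UV array whatever their order. Within some flank pairs they lay further apart. Examples are gCTCTc at 0.55 and gCCTTc at -0.40 over 5 libraries, and cTCTCg at 0.45 and cCTCTg at -0.70 over 2. The pooled values follow. The block tracts CCTT and TTCC stood at 0.10 and 0.09, the alternating tracts CTCT and TCTC at 0.08 and 0.02, and the nested tracts CTTC and TCCT at 0.07 and -0.07. Each of these 6 was above the library mean in 8 to 13 of 21 libraries, so their order is not larger than the spread between libraries. With 1 T among 3 C, CCCT stood at -0.25, CCTC at -0.30, TCCC at -0.38 and CTCC at -0.43, and these 4 were below the mean in most libraries, TCCC in all 21. CTCT varied most in place among the tracts with 2 T, since it ranked first in 2 libraries and last in 1.

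A least-squares description with a term per library gave each TT step in the tract 0.57 log2 units over a CC step on the CPD UV array, each CT step 0.31 and each TC step 0.25. The R2 of these 3 numbers within libraries was 0.609. A TT step stood highest and a CC step lowest also when the steps to the flanking bases were added. On the CPD non-UV array the corresponding values were 0.05 for TT, 0.04 for CT and 0.01 for TC.

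Without UV the 16 tracts lay close together on both arrays. On the CPD non-UV array they spanned 0.18 log2 units, with TTTT highest at 0.11 and CCCC lowest at -0.08 against the library mean, while on the CPD UV array they spanned 1.82. On the 6-4PP non-UV array they spanned 0.10, with CCTT highest at 0.06 and CCCC lowest at -0.03, while on the 6-4PP UV array they spanned 0.81. The ratio of UV to non-UV intensity of each probe, as a log2 difference, left the tract order much as it was on the UV array. The rank correlation over 16 tracts was 0.97 for CPD and 0.96 for 6-4PP. The non-irradiated array alone also ranked the tracts much as the UV array did with the anti-CPD antibody, with a rank correlation of 0.90, and that correlation was 0.34 with the anti-6-4PP antibody.

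In single probes the CPD extremes were the homopolymers, with mixed tracts among the lowest. TBP_59_AAAA, which reads cTTTTt, had 13279.5 ± 1387, p53_E_mut_60_AAAA, which reads tTTTTa, 12606 ± 1043, and TBP_MUT_59_AAAA, which reads cTTTTt, 11476 ± 1906 (SD, n = 10 spots each). At the low end MITF_sebox_60_GGGG, which reads gCCCCc, had 1362 ± 800.2, TBP_E60_GGAG, which reads cCTCCg, 1395 ± 1432, and MITF_Ex_ebox_59_GAGG, which reads aCCTCg, 1444 ± 2247. The spots of the last 2 spread by more than their median, so the order among the low probes is not resolved.

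The order of tracts was shared between libraries for CPD. Over the 210 pairs of libraries, the rank correlation across the 16 tracts had a median of 0.69 and ran from 0.22 to 0.92 on the CPD UV array, always above 0. Libraries share their array and, in part, their fixed bases, so this is a description. For the 22 pairs of libraries with the same flanks it was 0.80, and for the other 188 pairs 0.68. On the CPD non-UV array the median was 0.17.

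The anti-6-4PP signal after UV did not follow the number of T. Median intensity was 11816 with 0 T, 19220 with 1, 18361 with 2, 19613 with 3 and 15867 with 4. The first T raised the mean in 21 of 21 libraries, by a median of 0.46 log2 units, while the fourth T left it higher in 3 of 21, with a median change of -0.13. TTTT exceeded CCCC by a median of 0.37 log2 units (-0.62 in MITF_Ex_ebox_60 to 0.96 in p53_mut_60), with 18 libraries higher and 3 lower. The spots of TTTT lay wholly above those of CCCC in 4 of 21 libraries, and libraries with TTTT wholly below were not counted. Of all pairs of names within a library, 48.1% were apart on that array in either direction, so the 2 figures are not like for like. The difference, of either sign, was larger than the combined spot SD in 9. On the 6-4PP non-UV array the difference had a median of 0, with TTTT higher in 9 libraries and lower in 10, and its spots wholly above in 0. There 1.93% of all pairs were apart in either direction.

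Pooled over libraries, the 6-4PP UV array put CTCT first at 0.27 log2 units against the library mean, followed by CTTT at 0.25, CCCT and TCCT at 0.23 each, TCTC at 0.21, CTCC at 0.15 and TCTT at 0.10. TTCT stood at 0.004, CTTC at 0.001, TTTC at -0.04, CCTT at -0.05, TTTT at -0.06 and CCTC at -0.09. TTCC stood at -0.23, TCCC at -0.28 and CCCC at -0.53, and CCCC was above the mean in 1 library only. These medians hide wide ranges: CCCT was among the highest 4 tracts in 8 libraries and among the lowest 4 in 8 others, with a range of -0.90 to 0.81. Of the 16 tracts only CCCC and TTCC stayed below the mean in 20 of 21 libraries, and none stayed above it in more than 17.

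For 6-4PP the flanking bases set apart the libraries that shared an order. Libraries with the same flanks ranked the 16 tracts almost alike, with a median rank correlation of 0.96 and a range of 0.89 to 0.98 over 22 pairs, and the median was also 0.96 for the 10 pairs that joined different backbones. With the same base on the 3′ side of the tract alone it was 0.89 over 56 pairs, all above 0. With another 3′ base the median was -0.23 over 154 pairs, of which 48 were above 0. Grouping by the 3′ base was chosen after these values had been seen. On the 6-4PP non-UV array libraries with the same flanks had a median correlation of 0.04.

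Tracts of the same composition read in the reverse order show the turn on the 6-4PP UV array. TCTC minus CTCT was negative in all 7 libraries with a 3′ C, with a median of -1.09 log2 units, and positive in all 8 with a 3′ G, with a median of 0.97. TTTC minus CTTT was likewise negative in all 7 with a 3′ C (-1.12) and positive in all 8 with a 3′ G (0.68). TCCC minus CCCT was negative in all 7 with a 3′ C (-0.97) and had a median of 1.14 with a 3′ G, positive in 6 of 8. With C on the 3′ side the tract that itself ended in T was the brighter of each pair. With G on the 3′ side and a or c before, the tract that itself ended in C was. In the 2 libraries with t before and g after, the pairs lay close together. There tTCTCg and tCTCTg had medians of 0.23 and 0.21 log2 units against the library mean, and tTTTCg and tCTTTg 0.13 and 0.03. In the third pair tTCCCg lay below tCCCTg, at -0.30 and -0.21.

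The other pairs turned in the same places with smaller differences. CTTC minus TCCT had a median of -0.70 with a 3′ C and 0.34 with a 3′ G, and TTCC minus CCTT -0.31 and 0.20. TTCT minus TCTT ran the other way, at 0.34 in favour of TTCT in all 7 libraries with a 3′ C and at -0.38 in all 8 with a 3′ G, and so did CTCC minus CCTC, at 0.54 and -0.26 with the same counts. Both members of TTCT and TCTT end in T, and both of CTCC and CCTC end in C. With a 3′ T (4 libraries) 6 of the 7 medians had the sign seen with a 3′ C, for instance -0.36 for TCTC minus CTCT and -0.42 for TTTC minus CTTT. The 2 libraries with a 3′ A, both p53, gave 0.40 and -0.07 for those pairs.

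On the CPD UV array the reversed pairs also differed with the 3′ base, with signs less even between libraries. TCCC minus CCCT had a median of -0.61 log2 units with a 3′ C, negative in 6 of 7 libraries, -1.32 with a 3′ T, negative in all 4, and 0.50 with a 3′ G, positive in 7 of 8. TCTC minus CTCT had -0.61 with a 3′ C, negative in 5 of 7, and 0.20 with a 3′ G, positive in 5 of 8. TTTC minus CTTT had -0.03 with a 3′ C, -0.24 with a 3′ T and 0.13 with a 3′ G, and CTTC minus TCCT had 0.20, -0.34 and 0.45. Pooled over the 21 libraries all 7 differences lay between -0.37 and 0.20 for CPD, and the first of these pairs, TCTC minus CTCT, also pooled to near 0 (0.003) for 6-4PP.

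The brightest 6-4PP tract was the same one in every library of a flank pair. CTCT was first in all 7 libraries with g on the 5′ side, TCTC in all 6 with a or c on the 5′ side and g on the 3′ side, CCTC in all 4 with t before and g or a after, and TCTT in both libraries with c before and t after. The other 2 libraries, with t before and c after, had 3 tracts level at the scanner limit.

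Single flank pairs show which contexts were brightest with the anti-6-4PP antibody. Among the 5 libraries that read g and c around the tract, gCTCTc was highest at 0.74 log2 units against the library mean and gCCCCc lowest at -0.61. Among the 4 that read a and g, aTCTCg was highest at 0.94 and aCCCTg lowest at -0.83, and the c and g libraries had the same 2 at the ends, cTCTCg at 0.78 and cCCCTg at -0.85. With t and g, tCCTCg was highest at 0.57 and tTTTTg lowest at -0.51. With t and a, tCCTCa was highest at 0.53 and tTCCTa lowest at -0.56.

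The libraries with a 3′ T had cTCTTt highest at 0.48 and cCCCCt lowest at -0.94, and gCTCTt highest at 0.67 and gCCCCt lowest at -0.76. In the t and c libraries of MITF, 3 contexts reached the scanner limit in both libraries, namely tCCCTc, then tCTCTc and also tCTTTc, and have no order among themselves. The lowest there was tTTTCc with a median of 22709. CCCC was thus the lowest context in 3 of the 8 flank pairs.

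The same 4 purines gave very different 6-4PP signals on 2 sets of flanks. MITF_ebox_59_AGGG, which reads tCCCTc, lay at 65535 with 9 of its 10 spots at the limit, whereas MITF_Ex_ebox_59_AGGG, which reads aCCCTg, had 7796.5 ± 1317 (SD, n = 10 spots), at least an 8.41-fold difference. In the second MITF pair, MITF_sebox_59_AGGG lay at 65535 with 6 of 10 spots at the limit and MITF_Ex_sebox_59_AGGG had 8485 ± 2867, at least 7.72-fold. On the 6-4PP non-UV array the first pair had 60.5 and 62, and the second 66.5 and 63, a few units apart.

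With the anti-CPD antibody the same probes differed far less. MITF_ebox_59_AGGG had 2514.5 ± 2026 on the CPD UV array and MITF_Ex_ebox_59_AGGG had 1634 ± 636.8, a ratio of 1.54 within the spread of the spots, and the second pair had 5031.5 and 2373, a ratio of 2.12. GAGA on the same flanks went slightly the other way with the anti-6-4PP antibody: MITF_ebox_59 (tTCTCc) had 24411 and MITF_Ex_ebox_59 (aTCTCg) 31513, a ratio of 0.78, and the second pair had 24110 and 29031, a ratio of 0.83.

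In the MITF_sebox_59 library shown above, AAAA (TTTT) had 10462.5 ± 1588 on the CPD UV array, against 31.5 on the CPD non-UV array, and GGGG (CCCC) had 3017.5 ± 1697, against 28.5 (SD, n = 10 spots). The alternating endings lay between, with 6402.5 ± 2275 for GAGA (TCTC) and 4641.5 ± 2989 for AGAG (CTCT) on the CPD UV array. With the anti-6-4PP antibody the order was another: AGAG lay at 65535 on the UV array, against 63.5 on the non-UV array, and AAAA had 36972 ± 10090, against 65. GGGG had 29383 ± 4607, against 65.5, and GAGA had 24110 ± 4974, against 60.5. The brightest of the 4 for CPD was thus AAAA and for 6-4PP AGAG, while the 4 non-UV values of each antibody lay within a few units.

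The whole pyrimidine run, flanking pyrimidines included, was also read by the steps at its ends. This grouping was likewise chosen after the values had been seen. On the 6-4PP UV array runs that ended in TC were brighter than runs that ended in CC in 17 of 17 libraries where both occur, by a median of 0.58 log2 units (0.21 to 0.82), and runs that ended in TT were brighter than runs that ended in CT in 13 of 14, by 0.20. By the same 3′ step, median intensity was 23835 for runs ending in TC, 18872 for TT, 16210 for CC and 15386 for CT. On the CPD UV array TC exceeded CC by 0.44 in 17 of 17 libraries and TT exceeded CT by 0.78 in 14 of 14. Each of these comparisons sets a T against a C, so the end of the run and the number of T are not told apart. With each added T, the CPD mean over all tracts with that number of T rose by medians of 0.42 to 0.53 log2 units. That mean does not separate the places of the T, and single contexts did not all follow it. Against the library mean, aCCCTg stood at -0.95 and aCCCCg at -0.91, and tCCCTg at -0.71 and tCCCCg at -0.53. On the 6-4PP non-UV array TC minus CC had a median of -0.002, and without UV the anti-CPD antibody gave 0.007.

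The 5′ end of the run went with the level as well. On the CPD UV array runs that began with CT exceeded runs that began with CC by a median of 0.67 log2 units in 15 of 15 libraries. Runs that began with TT exceeded those with TC by 0.59 in 17 of 17. At the same 5′ end TC exceeded CC by 0.17, in 9 of 11 libraries, and TT exceeded CT by 0.22, in 10 of 11. These same contrasts were larger at the 3′ end, at 0.44 for TC over CC and 0.78 for TT over CT. On the 6-4PP UV array runs that began with CT exceeded those with CC by 0.31 in 15 of 15. TC exceeded CC by 0.09 at the 5′ end in 11 of 11 libraries, against 0.58 at the 3′ end. TT minus TC had a median of -0.29 with 3 of 17 libraries above 0, and TT minus CT a median of -0.30 with 4 of 11 above 0. These comparisons overlap, since the steps at both ends belong to the same runs. They too each set a T against a C and do not separate the end of the run from the number of T.

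The step values for 6-4PP changed when the flanking bases were counted. Within the 4 tract bases alone, TC, CT and TT steps had 0.15, 0.29 and 0.10 log2 units over CC on the 6-4PP UV array, with an R2 of 0.195 within libraries. With the steps to flanking pyrimidines added, a TC step had 0.46, a CT step 0.04 and a TT step 0.11, with an R2 of 0.379. The CPD fit moved much less, with 0.53 for TT, 0.22 for TC and 0.26 for CT, and an R2 of 0.674. A count of steps therefore described the opposite-strand tract better for CPD than for 6-4PP.

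Libraries with longer runs were brighter with the anti-6-4PP antibody. Members had a median of 15636 in the 4 libraries with a run of 4, 17440 in the 13 with a run of 5 and 29373 in the 4 with a run of 6 on the 6-4PP UV array. With the anti-CPD antibody the medians after UV were 4287, 4536 and 5506. Among the 59-base MITF libraries, a run of 6 had 35216 and a run of 4 had 14508 with the anti-6-4PP antibody, and 5408 and 4131 with the anti-CPD antibody. The 59-base TBP libraries had 25243 for a run of 6 and 16569 for a run of 4 with the anti-6-4PP antibody, and 6229 and 4666 with the anti-CPD antibody. By library, the median of the 16 members on the CPD UV array ran from 3428 in MITF_sebox_60 to 6759 in TBP_59, and with the anti-6-4PP antibody after UV from 13365 in NP_MITF_ebox_60 to 35216 in MITF_sebox_59. Run length and flanking bases change together in these libraries and cannot be told apart.

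The most alike set is the 336 names whose 4 varied bases are all pyrimidines, so that the same tract lies on the listed strand. They hold 288 distinct sequences, so some sequences enter the listed-strand values under more than 1 name. The opposite-strand tracts had a median of 4694 on the CPD UV array and the listed-strand tracts 5893. On the 6-4PP UV array the opposite-strand tracts had 18669 and the listed-strand tracts 27728. The flanks often differ between the strands: opposite-strand and listed-strand runs add up to 10 bases in every library, so a short run on one is a long run on the other. By opposite-strand runs of 4, 5 and 6, the 6-4PP difference, opposite minus listed, was -1.21, -0.62 and 0.52 log2 units, and the CPD difference -0.89, -0.35 and 0.12.

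In 9 libraries the flanks read the same on both strands, which gives 144 pairs of probes with one and the same context. Here the opposite-strand tract was dimmer on the 6-4PP UV array in 140 pairs and brighter in 4, with a median of -0.58 log2 units, and all 9 library medians were below 0 (-1.35 to -0.32). On the CPD UV array it was dimmer in 107 pairs and brighter in 37, with a median of -0.47 and all 9 library medians below 0 (-0.71 to -0.19). The non-UV arrays showed a smaller difference in the same direction, with a median of -0.24 with the anti-CPD antibody and -0.19 with the anti-6-4PP antibody. That restriction to 9 libraries was added after the data had been seen.

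Each probe's log2 non-UV value was also subtracted from its log2 UV value, which gives the ratio of UV to non-UV intensity. This does not remove a background from the UV signal. The non-UV values of the members were low, at 25.5 to 37 for CPD and 33.5 to 73 for 6-4PP. For the ratio, the 6-4PP difference between strands was -0.42 log2 units, with the opposite strand lower in 137 of 144 pairs. The CPD difference was then -0.15, lower in 92 and higher in 52 pairs, and -0.03 over all 336 pairs. By tract, TTTT on the CPD UV array was dimmer on the opposite strand in 9 of 9 such libraries, with a median difference of -0.85. The 4 tracts with 3 T had medians between -0.64 and -0.49, and CCCC had -0.45, dimmer in 5 libraries and brighter in 4 (-1.06 to 1.44). Other tracts went the other way in the median, with CCCT at 0.22, CTCT at 0.21, CTCC at 0.08 and TCTC at 0.015. For the ratio of UV to non-UV the log2 medians were -0.40 for TTTT, between -0.33 and -0.17 for the tracts with 3 T, -0.44 for CCTT and -0.28 for CCCC. They were above 0 for CTCT (0.41), CCCT (0.27), TCTC (0.22), CTCC (0.10) and CCTC (0.04). The gap in this ratio had no plain order by number of T. How far the strand's level without UV bears on the gap was not tested.

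The order of tracts was nearly the same on either strand where the flanks matched. Within the 9 libraries, the rank correlation of the 16 tracts between opposite and listed strand had a median of 0.96 on the 6-4PP UV array (0.69 to 0.97) and 0.79 on the CPD UV array (0.49 to 0.97). By the 3′ step of the run, TC exceeded CC in the listed-strand set as well. The difference was 0.86 log2 units on the 6-4PP UV array in 17 of 17 libraries and 0.56 on the CPD UV array in 17 of 17. Here too the comparison sets a T against a C.

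The 2 antibodies ranked the opposite-strand tracts differently. Over the 16 tracts, with medians over libraries, Spearman's rho between the CPD UV and the 6-4PP UV arrays was 0.19 and Pearson's r 0.38, as a description over tracts that share libraries. Within libraries rho had a median of 0.22, was above 0 in 14 of 21, and ran from -0.31 in MITF_Ex_ebox_60 to 0.68 in MITF_ebox_60. By the 3′ base its median was 0.49 with C, 0.55 with T, 0.07 with G and 0.18 with A. TTTT, first for CPD, was twelfth of 16 for 6-4PP, while CCCC was last for both.

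Against all endings of their library, few purine endings stood far out. On the CPD UV array 15 of 336 members (4.46%) were 2-fold or more above their library's median, where 9.97% of all names of the 21 libraries were, and 9 of the 15 were TTTT. The all-pyrimidine endings passed it in 87 of 336 (25.9%). On the same array 16 members (4.76%) were 2-fold or more below, against 8.85% of all names and 5.65% of the all-pyrimidine endings, and 7 of the 16 were CCCC. The count below rested on the spots used: it was 34 members (10.1%) with spots 1 to 5, against 12.2% of all names, and 26 (7.74%) with spots 6 to 10, against 12.5%. With the adjusted intensity it was 9 members (2.68%), against 4.33% of all names. Both shares of the purine endings were under those of all names in each of these settings.

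On the 6-4PP UV array 25 members (7.44%) were 2-fold or more above their library's median, against 19.0% of all names, and 12 of the 25 came from MITF_ebox_59 and MITF_sebox_59. The all-pyrimidine endings passed in 136 of 336 (40.5%). None of the 336 purine endings was 2-fold below, against 17.1% of all names. The all-pyrimidine endings were much alike in this, with 1 of 336 (0.298%) below. On the non-UV arrays 0 members passed in either direction, where 0.409% of all names were above and 0% below with the anti-CPD antibody, and 0.0558% and 0% with the anti-6-4PP antibody.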

How the data were processed

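The deposited files give fluorescence intensity per spot on a linear scale, per the file headers; the authors also deposited intensity without flagged spots, a local median and a spatially adjusted intensity. The adjusted value equalled the unflagged intensity times the array median over the local median. Arrays were grouped by the condition field of the labels, 1 array a group. Spot numbers were removed from the names, and each name's value was the median of its unflagged spots (10 at most), on the log2 scale. Each tract was set against its library's mean over 16 tracts. The tract of an ending is its reverse complement. No test was run, since no group has a second array. The step description was least squares with a term per library, and it was tested on simulated data. Python 3.11.15, numpy 2.4.6, pandas 2.3.3 and scipy 1.17.1 were used. Named were all 16 tracts and the 3 highest and 3 lowest probes of each UV array, with ties at the limit of 65535; 6 tied at the top of the 6-4PP UV array, AAAG, AGAG and AGGG of MITF_ebox_59 and of MITF_sebox_59. The lowest 3 there were AGGG of MITF_Ex_ebox_59 and of MITF_Ex_sebox_59 and NP_MITF_ebox_60_GGGG, at 8726 ± 2417. The rule for the members reads names alone, but members and lists were chosen with earlier results of these data known. The alternatives are in the closing section.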

Additional observations from a re-analysis of the deposited data

Results flagged for a closer look

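Spots without a probe name, 1716 on each array, enter none of the comparisons above and were bright on the UV arrays. Their median intensity with the anti-CPD antibody was 40595.5 on the UV array, against 63 on the non-UV array. With the anti-6-4PP antibody it was 65535 on the UV array, the scanner limit, against 44 on the non-UV array.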

How the results depend on the processing

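No paired analysis was possible because each group holds 1 array. A value was taken as moved where it changed by more than the median spot SD of its array, a rank correlation by more than 0.1, or a count by more than 1.5 times. Of the main results under an alternative, 394 were within this and 36 were not. On the CPD UV array the limit was 0.66 log2 units. That is larger than each step value, the strand difference and every pooled difference of reversed tracts there, so being within it says little for them. The CPD strand difference ran from -0.47 to -0.28 and kept its sign in 12 of 12 alternatives. The CPD step values kept theirs in 12 of 12 as well, with TT at 0.50 to 0.64. The sign differed from the main value in 39, of which 32 were within the limits and were differences of reversed tracts or correlations between libraries. UV minus non-UV with the anti-6-4PP antibody was -8.468 when those arrays were read by title. TTTT minus CCCC on the CPD UV array stayed between 1.66 and 2.22 log2 units over 11 alternatives. Its median correlation between libraries, 0.687, was 0.801 with the adjusted intensity and 0.579 with spots 6 to 10. On the 6-4PP UV array that correlation, -0.003, was -0.106 in 60-base probes and -0.209 without TBP libraries. A step of TC there was 0.463 with flanking steps added, against 0.150. Differences of reversed tracts on that array moved with the libraries kept, which differ in flanks: TCTC minus CTCT was 0.494 in 59-base probes, -0.557 in 60-base probes and -0.561 without TBP, against 0.003; TCCC minus CCCT was 0.401, -0.584 and -0.584, against -0.283; TTTC minus CTTT was 0.163 in 59-base probes, against -0.301. On the CPD UV array TCCC minus CCCT was 0.499 in 59-base probes, against -0.167. Counts past 2-fold are taken against each library's own median. Leaving libraries out can therefore only keep or lower them, since fewer members are counted, and is no check on them. Above on the CPD UV array they were 7 in 59-base probes, 8 in 60-base probes and 4 without TBP, against 15. Below they were 8, 8 and 6, against 16. With all libraries kept, the count below was 9 with the adjusted intensity and 10 with the mean of spots. It was 34 with spots 1 to 5 and 26 with spots 6 to 10, so that count rests on the spots used. Above on the 6-4PP UV array the counts were 6 in 60-base probes and 8 without MITF, against 25. Below on that array they were 2 with spots 1 to 5 and 1 with spots 6 to 10, against 0. The correlation of the antibodies over the 16 tracts, 0.191, was 0.050 with spots 1 to 5, 0.297 in 60-base probes, 0.3 without MITF, -0.026 without p53 and 0.329 without names at the limit; its median within libraries, 0.215, was 0.074 in 59-base probes, 0.438 in 60-base probes and 0.409 without MITF. Apart from the counts with libraries left out, the cause of these changes was not tested. Pairs whose run no flanking base extends on either strand gave no value, since a flanking base extends the run on at least one strand in every library. Of the other values, 1110 were within the limits and 8 moved, 7 of them levels of single tracts on the 6-4PP UV array. Values at the limit are lower bounds, and no repeat array measured the spread of irradiation or binding.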
